A study of Mus musculus with 24 samples.

Results

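The miRNAs of 2 embryonic stem cell clusters, the miR-290 cluster and the cluster of miR-302 and miR-367, were examined across tumors, metastases, normal tissues and cultures of a mouse mammary tumor model built on JygMC(A) cells. The members were the 10 probes of the assay named mmu-miR-291a-3p, mmu-miR-291b-3p, mmu-miR-292-3p, mmu-miR-294, mmu-miR-295, mmu-miR-302a, mmu-miR-302b, mmu-miR-302c, mmu-miR-302d and mmu-miR-367 (written below without the species prefix mmu), out of 566 mouse miRNA probes. They were chosen by name and not by their values. Expression was measured with the nCounter assay, which counts barcoded probes bound to RNA without amplification, in 24 samples. JygMC(A) is a mouse mammary carcinoma line used as a model of triple negative breast cancer, and here it carried a GFP and firefly luciferase (GFP/Luc) reporter in a sorted, transduced population. The tumors grew from these cells after injection into the fourth mammary fat pad of young adult female BalbC nude mice, which lack a thymus and with it most T cells. Laser capture took 5 carcinoma areas and 7 EMT-like areas (spindle-shaped, mesenchymal-like tumor cells) from primary tumors (PT), and 4 lung metastases. Normal mammary gland (NMG, n = 2) and normal lung parenchyma (n = 2) came from the same mouse strain. Whether these mice were free of tumors was not given in the sources used here. The cells themselves were sampled as a monolayer (n = 2) and as serially passaged 3D-spheres on ultra-low adherent plates (n = 2). Carcinoma, EMT-like and metastasis samples shared animals in part, 1 sample of each of these groups pooled 3 animals by its label, and the normal lung and NMG samples carried the same pair of numbers. All tumors came from 1 cell line, so p-values that involve tumors or cultures extend to this line only. The limma fits below took 1 estimate of the spread over all 7 groups, normal tissues and cultures included.

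Both clusters encode miRNAs that are abundant in pluripotent mouse cells. The miR-290 cluster, the counterpart of the human miR-371 cluster, is active in naive embryonic stem cells and the early embryo, and the miR-302 cluster is a target of Oct4 and Sox2 that is active in the epiblast and in primed stem cells. Most members share the AAGUGC core, repress inhibitors of the G1 to S transition such as Cdkn1a, and promote reprogramming to pluripotency, while miR-367 has a seed of another family. Both clusters are silent or nearly so in most adult tissues, and are used as markers of pluripotent cells. The values were set against background to see whether spheres or tumors carried a stem-like signal and whether normal lung carried an unexpected one.

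The mature sequences are shown because they set which probes can be compared as a family. Of the 10 members, 8 matched a mature miRNA of RefSeq (assembly GRCm38.p6), with probe names that lack an arm read as the 3p strand (miR-292-3p and miR-302a were not matched). The sequences run from 5′ to 3′, with the seed (bases 2 to 8) in capitals. The miR-302 and miR-367 members lie on chromosome 3, plus strand, within 580 bases (chr3:127545228-127545807, 5 hairpins), inside the spans of the protein-coding gene Larp7 and of the lncRNA Gm51018.
miR-302b: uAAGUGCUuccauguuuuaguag
miR-302c: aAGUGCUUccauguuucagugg
miR-302d: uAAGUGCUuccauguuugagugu
miR-367: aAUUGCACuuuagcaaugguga

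The miR-290 members lie on chromosome 7, plus strand, within 2216 bases (chr7:3218626-3220841, 7 hairpins), where the spans of Nlrp12 and of the lncRNA D7Ertd143e overlap the cluster.
miR-291a-3p: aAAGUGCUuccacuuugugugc
miR-294: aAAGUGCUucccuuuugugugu
miR-295: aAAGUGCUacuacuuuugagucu
miR-291b-3p: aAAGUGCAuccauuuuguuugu

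Of these 8, 5 have the seed AAGUGCU, miR-291b-3p has AAGUGCA and miR-302c has AGUGCUU, which is the same core moved by a base at its start, so 7 of 8 hold AAGUGC. Over the whole length the members differ more. miR-302b, miR-302c and miR-302d are 3 edits apart from each other, and miR-302b is 7 or 8 edits away from each miR-290 member printed here. miR-302d is closer to that cluster, at 4 edits from miR-294 and 5 from miR-291a-3p and miR-291b-3p. miR-294 is 3 edits from each of miR-291a-3p and miR-291b-3p. Binding of a probe to near copies, within a cluster or between the clusters, was not tested.

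The deposited value of a probe was its count after subtraction of background, inferred from the values to be the mean of the 6 negative control probes of its lane. No scaling between lanes could be found. A value was taken as above the detection limit when it exceeded the mean + 2 SD of those controls in the lane, which lay between 4 and 21.4. The 33 probes for viral miRNAs on the same panel served as a second background, since the labels name no viral infection. The sum of the mouse miRNA values was 115259 to 164785 in carcinoma, 111602 to 184501 in EMT-like areas and 62583 to 115278 in metastases. The NMG lanes summed to 560247 and 525697 and the normal lung lanes to 590022 and 2335745. Cultures were dimmer, at 46507 and 26420 for the monolayer and 38689 and 33419 for spheres. Normal lung replicate 2 therefore stood apart by its signal, and the called differences that involve normal lung are given with and without it. Among markers of the tissues, the endothelial miR-126 probes were detected in every tissue lane and were at or below 0 in every culture. The epithelial miR-200 family, miR-141 and miR-203 markers were all detected in NMG, normal lung and metastases, whereas spheres had 0 of 6 above the limit and the monolayer had 1 of 6. Carcinoma lanes had 5 to 6 of these 6 markers above the limit, with a per-million sum of 5570 to 33899, and EMT-like lanes 1 to 6, with 304 to 10239, so some EMT-like lanes carried all 6 epithelial markers and the sums of the 2 groups overlapped.

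Most of these miRNAs were not detected. Of the 240 member values, 23 (9.58%) were above the limit, against 12.4% of the viral and 37.0% of all mouse miRNA values. Values of 6 members, miR-291a-3p, miR-291b-3p, miR-294, miR-295, miR-302a and miR-302c, were above the limit in 0 of 24 lanes. The other members were miR-292-3p and miR-302b with 4 lanes each, miR-302d with 3 lanes and miR-367 with 12 lanes. The pattern fell into a normal tissue signal of miR-292-3p, miR-302b and miR-302d, and a low, widespread signal of miR-367. The plot of deposited values shows both.

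**Figure D1:**
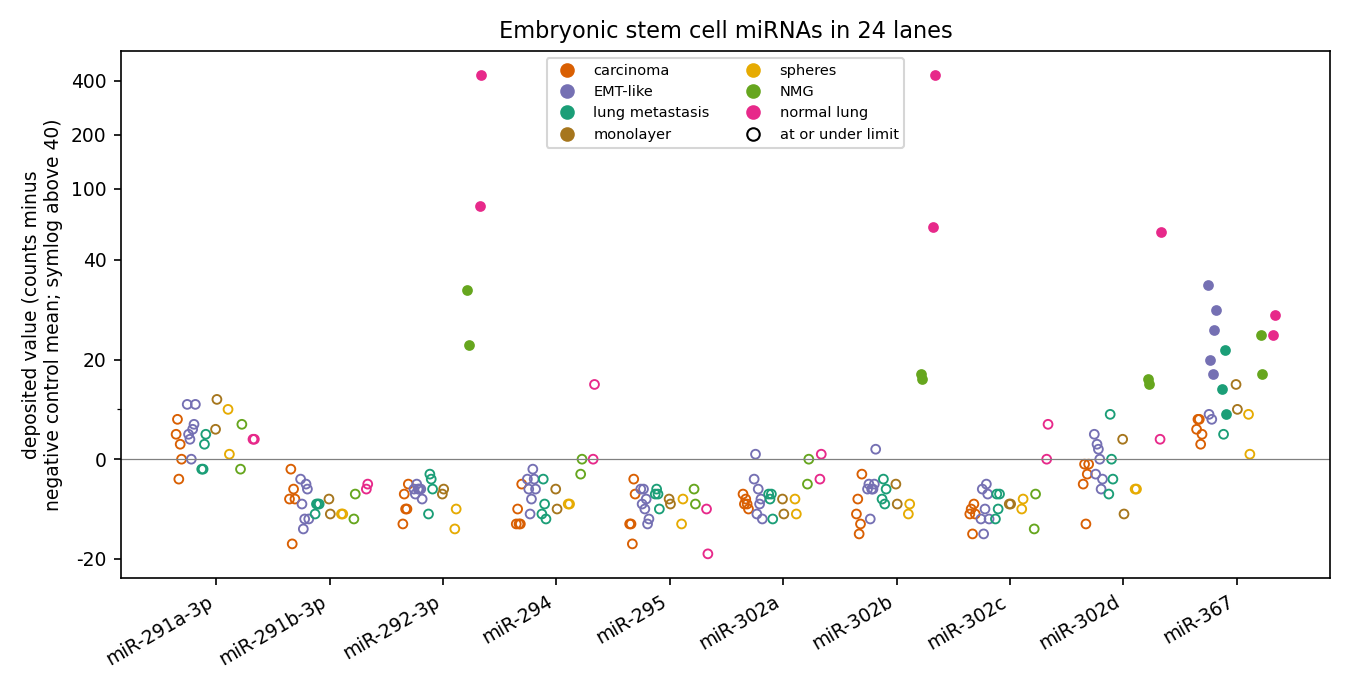
Deposited values (counts minus background, inferred to be the negative control mean of the lane, drawn linear to 40 and logarithmic above) of the 10 members in 24 lanes, coloured by group. Filled points are above the detection limit of their lane and open points are at or under it. miR-292-3p and miR-302b reached 431 in a normal lung lane, and miR-367 is the only member with filled points among the tumors.

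In tumors and cultures, 8 of 200 member values (4.0%) were above the limit, where the viral probes gave 7.88% and all mouse probes 32.6%. All 8 belonged to miR-367. Without it the count was 0 of 180. Carcinoma had 0 of 50 member values above the limit (viral probes 4.85%), EMT-like areas 5 of 70 (10.8%) and metastases 3 of 40 (7.58%). The monolayer had 0 of 20 (10.6%) and the spheres 0 of 20 (3.03%). The highest value of a miR-302 or miR-290 member among these 20 lanes was 12, for miR-291a-3p in the monolayer, where the limits were 21.4 and 16.9.

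Third-generation spheres, the cultures meant to enrich stem-like cells, had no member above the limit. For miR-292-3p the sphere values were -14 and -10 and the monolayer values -7 and -6. For miR-302b they were -11 and -9 against -5 and -9, and for miR-302d -6 and -6 against 4 and -11. These values were at or below the negative controls in every sphere lane, and no order can be read from them. For miR-367 the spheres had 9 and 1 and the monolayer 15 and 10, all under the limit. With limma, 0 of the 8 members tested were called between spheres and monolayer (background 4.63% of 583 probes). Of these, miR-292-3p, miR-294, miR-302a, miR-302b and miR-302c entered as 0 in every culture lane and could not have been called. The single member with an unadjusted p under 0.05 was miR-367 (adjusted p = 0.339), and it carries no fold change because both groups were under the limit. The reach of the culture lanes was short. Divided by the summed mouse miRNA values, their limits equalled per-million shares of 332 to 639, so a member at the normal lung level described next would not have been detectable in the cultures.

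Normal tissues held the highest values. Of their 40 member values, 15 (37.5%) were above the limit, near the 34.8% of the viral probes and below the 58.7% of all mouse probes, so as a count the members did not stand above the viral background. The size of 2 members did. miR-292-3p, the 3p strand of a miR-290 cluster hairpin, had values of 80 and 431 in normal lung and 34 and 23 in NMG, and was below 0 in all 20 other lanes (carcinoma -13 to -5, EMT-like -8 to -5 with a median of -6, metastases -11 to -3). miR-302b had 61 and 431 in normal lung, 17 and 16 in NMG, and -15 to 2 in the other 20 lanes. For both miRNAs every normal lung value was above every NMG value, and every NMG value was above all tumors and cultures. These are values not scaled between lanes, and the mouse miRNA sums of the lanes had the same order. The share of all probes with this order was not counted, so it is a description only.

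The viral probes separated the 2 normal tissues. In normal lung the highest viral probe was at 21 in replicate 1 and 88 in replicate 2, so miR-292-3p and miR-302b exceeded all 33 viral probes in both lanes. In NMG the highest viral probes were at 34 and 28. miR-292-3p in NMG equalled the highest of them in replicate 1 and had 2 viral probes at or above it in replicate 2, and miR-302b had 10 and 8. The NMG signal was thus within the range of the viral probes, and the normal lung signal was not. Of the viral probes, 42.4% were above the limit in NMG and 27.3% in normal lung. By lane the share was 45.5% and 39.4% in NMG replicates 1 and 2. In normal lung it was 9.09% in replicate 1 and 45.5% in replicate 2. Some control probes for miRNAs of other species also read high in normal lung replicate 2, with cel-miR-248 at 48 and osa-miR414 at 23, above the limit of 19.5 and far under 431. There ath-miR159a was at -19. In NMG replicate 1 cel-miR-248 was above the limit too, at 13.

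**Figure D2:**
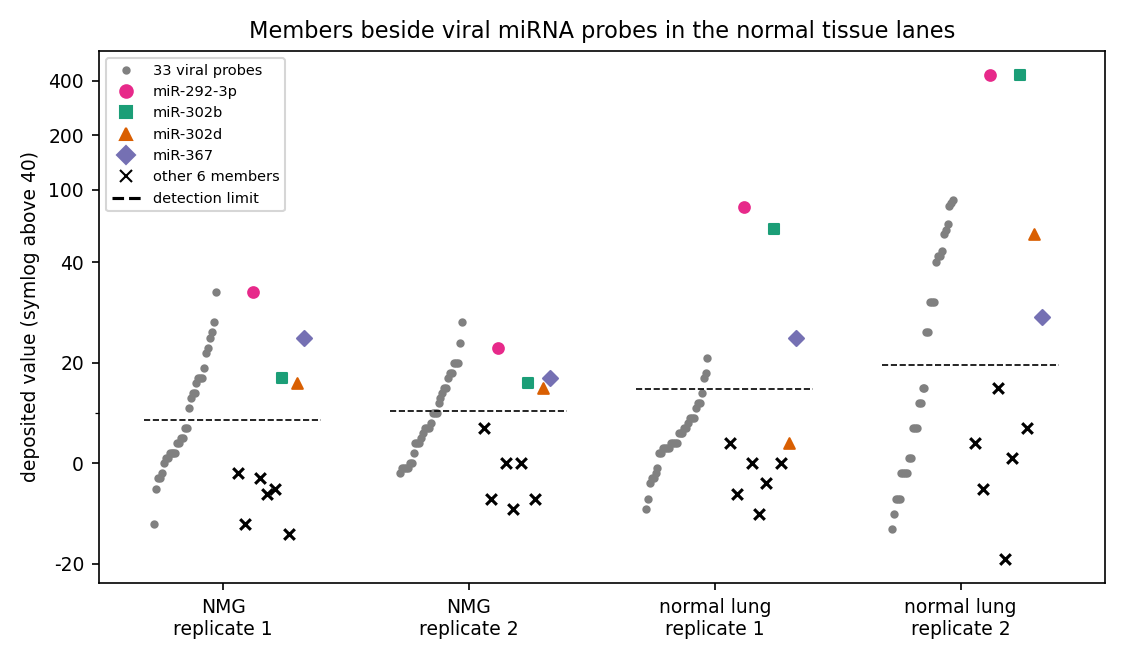
Deposited values (linear to 40 and logarithmic above) of the 33 viral miRNA probes (grey, sorted) and the 10 members in the 4 normal tissue lanes, with the detection limit dashed. miR-292-3p and miR-302b lie above all viral probes in both normal lung lanes and within or at the edge of their range in both NMG lanes.

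Normal lung replicate 2 was brighter as a whole, with 3.96 times the mouse miRNA sum of replicate 1. Over the 249 mouse miRNAs detected in both lanes the median ratio of replicate 2 to replicate 1 was 3.35 (quartiles 2.40 and 4.12). The ratio was 5.39 for miR-292-3p and 7.07 for miR-302b, above the upper quartile, and 1.16 for miR-367, below the lower quartile. As a per-million share of the mouse miRNA sum, miR-292-3p stood at 136 and 185 in normal lung and at 60.7 and 43.8 in NMG. miR-302b stood at 103 and 185 in normal lung and at 30.3 and 30.4 in NMG. By rank among the 566 mouse probes, miR-292-3p was at 150 and 127 and miR-302b at 159 and 127 in normal lung, in the middle of the detected miRNAs (257 and 368 detected).

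After TMM scaling (trimmed mean of M-values) of the lanes, log2(value + 1) was compared with limma: 2 of 8 tested members were higher in normal lung than in NMG and 0 were lower, with 11.7% of the 583 tested probes called in either direction and 10.5% higher. The log2 fold change was 2.39 (SE 0.31, adjusted p = 7.78e-06) for miR-292-3p and 2.88 (SE 0.41, adjusted p = 2.87e-05) for miR-302b. These SEs come from the fit of all 7 groups, in which miR-292-3p entered as 0 in 20 of 24 lanes and miR-302b in 19. The SEs and p-values therefore do not measure the spread among the normal tissue lanes and are a description only. Both calls were lost when only those 4 samples entered the fit (adjusted p = 0.0656 and 0.0590), and with 2 samples against 2 an exact permutation test cannot go below p = 0.333, the value both miRNAs had. Without the brighter normal lung replicate 2 the log2 fold changes were 2.08 for miR-292-3p and 2.38 for miR-302b. No p is given there, as a single normal lung lane was left. The median log2 fold change, as a description, was 0.47 over the 8 members, the called ones included, and 0.33 over the 583 probes. The cell makeup differed as well between these tissues. The miR-126 pair of endothelium summed to a per-million share of 169199 to 185429 in normal lung and 56217 to 76447 in NMG, and the erythroid pair miR-144 and miR-451 to 131099 to 133296 and 34526 to 42911, with 2 of 2 markers of each list above the limit in all 4 lanes. The part of endothelial or blood cells in the miR-292-3p and miR-302b values was not tested, and in bulk samples fewer cells of a type and less RNA per cell cannot be told apart.

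Against normal lung, neither miRNA was above the limit in any of the 4 metastases grown in that organ, but the reach of these lanes was uneven. The per-million limit of a metastasis lane was under the lower normal lung level of miR-292-3p (136) in 2 of 4 lanes, and under that of miR-302b (103) in the same number. Metastasis 2 had a limit above even the higher normal lung level of 185. Taking the detection limit of each metastasis lane against the normal lung level after TMM scaling, miR-292-3p was at least 4.10-fold lower in metastases and miR-302b at least 3.59-fold lower. The bounds depended on the scaling and on the brighter lane. Scaled by the mouse miRNA sum they were 1.51 and 1.33, without normal lung replicate 2 they were 3.31 and 2.54, and with both changes 1.30 and 1.01.

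With limma, 4 of 8 tested members were called lower in metastases than in normal lung (background 49.2% called, 42.2% lower), and this count is given as a description only. miR-292-3p, miR-294 and miR-302c passed the filter on low values (above 0 in at least 1 sample) through normal tissue lanes alone, so they had to be lower in tumors and no p is given for them here. miR-294 and miR-302c were above 0 in a single lane, normal lung replicate 2, at 15 and 7, both under the limit. The fourth, miR-302b, was called with a limma adjusted p of 1.71e-11, also a description only. Outside normal tissue it was above 0 only in EMT-like replicate 7, at 2 and under the limit of 17.3. Nearly all its tumor values thus entered the fit as 0. On the scaled log2 scale it was at 5.28 and 6.28 in the normal lung lanes and at 0 in all 4 metastases. The exact permutation p of miR-302b was 0.0667, the smallest that 4 against 2 samples allow. Markers of other cell types moved the same way. The per-million miR-126 sum was 6432 to 21683 in metastases against 169199 to 185429 in normal lung, and the erythroid sum of miR-144 and miR-451 was 2085 to 3740 against 131099 to 133296. Both miR-126 probes were above the limit in all 4 metastases, and 1 to 2 of the 2 erythroid probes. Their part in the difference was not tested.

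Against NMG, 3 of 8 members were called lower in carcinoma (background 29.3%, 23.8% lower) and 2 of 8 in EMT-like areas (24.9%, 20.4% lower). The counts are a description, since they include miR-292-3p, which passed the filter through normal tissue alone and for which no p is given. The other calls were miR-302b (adjusted p = 1.70e-06 in carcinoma and 2.74e-06 in EMT-like areas by limma) and, in carcinoma, miR-302d (0.0317 by limma). The p-values of miR-302b are a description only. Among the tumors it was above 0 only in EMT-like replicate 7, at 2 and under the limit of 17.3. In EMT-like areas miR-302d was not called (adjusted p = 0.130), but it was without scaling (0.00842), with the mean + 2 SD of the controls subtracted (0.0364) and when scaled by the mRNA controls (0.0258). The 2 comparisons share the NMG samples. No fold change is given because the tumor lanes could not have shown the NMG level. Their per-million limits were 66 to 171 in carcinoma and 64.6 to 101 in EMT-like areas, above the miR-292-3p level of NMG in 12 of 12 lanes. For these lanes the difference from NMG was not measurable at this depth, and every tumor value of miR-292-3p entered the fit as 0. The exact permutation p was 0.0476 in carcinoma and 0.0278 in EMT-like areas for each of miR-302b and miR-302d, the smallest these designs allow (0.122 after adjustment over 18 tests). These p-values, and the limma p-values of miR-302d, are a description only. Every carcinoma value of both miRNAs was below 0 and entered as 0, and no EMT-like value of either was above its limit. Normal lung levels were within reach of more lanes, since the limit was under the lower normal lung value of miR-292-3p in 3 of 5 carcinoma and 7 of 7 EMT-like lanes, and under that of miR-302b in 2 of 5 and 7 of 7. None of those lanes had a value above its limit. The erythroid sum was a per-million 538 to 1216 in carcinoma and at most 1933 in EMT-like areas, against 34526 to 42911 in NMG, with 1 of 2 erythroid markers above the limit in carcinoma lanes and 1 to 2 in EMT-like lanes. The miR-126 sum was 7680 to 12051 and 12321 to 20029, against 56217 to 76447, with both probes above the limit in every lane. Their part in these differences was not tested.

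**Figure D3:**
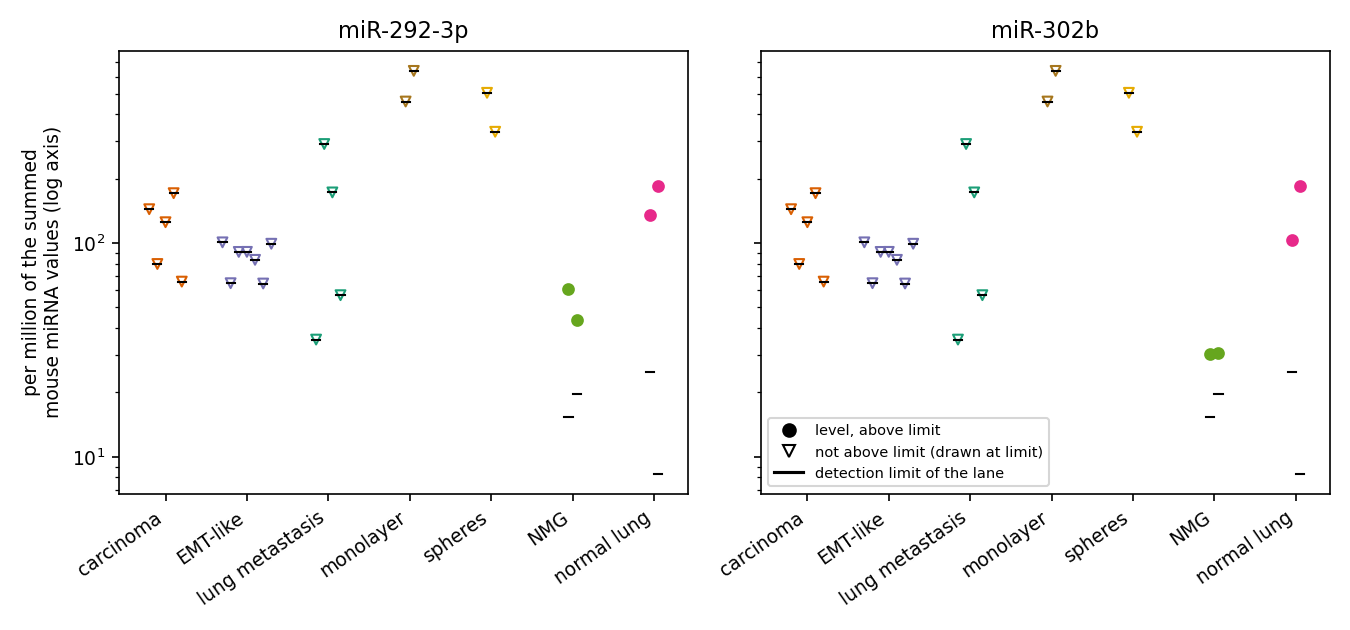
miR-292-3p (left) and miR-302b (right) as per-million shares of the summed mouse miRNA values in 24 lanes, on a log axis. Black bars are the detection limit of each lane, filled points are levels above it and open triangles are lanes not above it, drawn at the limit. Tumor and culture limits lie above the mean NMG level in all lanes except 1 metastasis lane for miR-292-3p, and normal lung levels lie above the limits of all 7 EMT-like lanes.

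The difference between metastasis and normal lung was compared with that between PT and NMG in the same fit. With limma, 2 of 8 members were called (background 11.5%), by -2.39 for miR-292-3p and by -2.99 for miR-302b (adjusted p = 0.000125) on the log2 scale. No p is given for miR-292-3p, which was above 0 in normal tissue alone. Without normal lung replicate 2 these differences were -2.08 and -2.49. As the values of both miRNAs were at or near the floor of 0 in all tumors, this contrast returns the difference between the normal tissues, and the p of miR-302b is a description only. Between the tumor groups no member was called: 0 of 8 between carcinoma and EMT-like areas (background 0.172%, 1 member with an unadjusted p under 0.05) and 0 of 8 between metastases and PT (background 3.09%, 0 members with an unadjusted p under 0.05). Of the 8, miR-292-3p, miR-294 and miR-302c entered as 0 in every lane of these groups and could not have been called.

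miR-302d, the near copy of miR-302b, behaved less clearly. It had values of 16 and 15 in NMG and of 4 and 57 in normal lung, and so was above the limit in 1 of 2 normal lung lanes. In no lane did it exceed every viral probe. Carcinoma values were -13 to -1, EMT-like values -6 to 5 with a median of 0, and metastasis values -7 to 9. Between normal lung and NMG the groups overlapped (log2 fold change -0.18, SE 1.16, adjusted p = 0.952 by limma, and -1.02 without normal lung replicate 2). Its call against NMG in carcinoma rests on 2 NMG lanes, and no p is given with either left out, as a single NMG lane remains.

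The remaining 6 members were not above the limit in any lane. miR-291b-3p (-17 to -2) and miR-295 (-19 to -4) were below 0 in 24 of 24 lanes and could not be tested. miR-302a ranged from -12 to 1, miR-302c from -15 to 7, miR-294 from -13 to 15 and miR-291a-3p from -4 to 12. miR-294, among the most abundant miRNAs of embryonic stem cells, was at 0 and 15 in the normal lung lanes in which its cluster mate miR-292-3p was at 80 and 431. Likewise miR-302a was at -4 and 1 and miR-302c at 0 and 7 where miR-302b was at 61 and 431. The members of a cluster, which are made from a common transcript, were thus measured at very unequal values in the same lane. Probes differ in efficiency and background, so these values are not a ratio of the miRNAs themselves.

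miR-367 was the most often detected member, always at low values. It was at 6, 8, 8, 3 and 5 in carcinoma, with 0 of 5 lanes above the limit. In EMT-like areas it was at 35, 9, 20, 8, 17, 26 and 30 (lowest 8, median 20, highest 35), with 5 of 7 above the limit and 4 of 7 above every viral probe. In metastases it was at 14, 5, 22 and 9, with 3 of 4 above the limit and 2 of 4 above every viral probe. NMG values were 25 and 17, and normal lung values 25 and 29. Deposited EMT-like values were at or above the highest carcinoma value of 8 in every lane, so unscaled the groups touched at a single value. After TMM scaling they overlapped, with carcinoma replicate 2 at 9.45 and EMT-like replicates 2 and 4 at 9.01 and 7.69. Carcinoma had a mean deposited value of 6.0 ± 2.12 (SD, n = 5), and EMT-like areas one of 20.7 ± 10.3 (SD, n = 7).

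**Figure D4:**
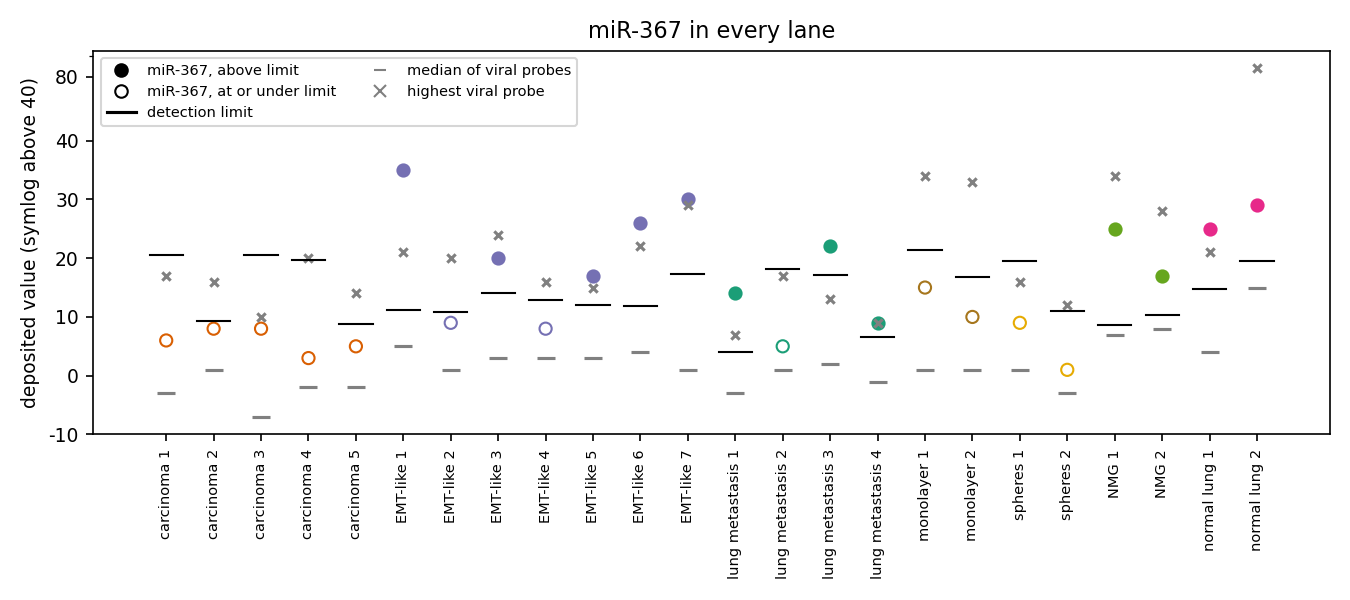
Deposited value of miR-367 in each of 24 lanes (linear to 40 and logarithmic above), filled where above the detection limit (black bar), with the median (grey bar) and the highest (grey cross) of the 33 viral probes of the lane. EMT-like lanes 1, 5, 6 and 7 have miR-367 above every viral probe, no carcinoma lane does, and the viral median of every EMT-like lane is at or above that of every carcinoma lane.

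On the scaled log2 scale, miR-367 in carcinoma minus EMT-like areas was -1.18 (SE 0.44, unadjusted p = 0.0142, adjusted p = 0.202 with limma), and it was not called. As all carcinoma values were under the limit, this is a difference of values near background and not a measured fold. Alternative settings gave adjusted p-values between 0.0868 and 0.660. The exact permutation test gave p = 0.00884 over 792 splits (0.122 after adjustment over 18 tests). The viral probes moved the same way. Their median per lane was -7 to 1 in carcinoma and 1 to 5 in EMT-like areas, and across all 24 lanes the Spearman correlation of miR-367 with the viral median was 0.741 (0.748 over the 12 PT lanes), given as a description because both come from the same lane. After subtraction of the viral median the means were 8.60 ± 3.85 (SD, n = 5) and 17.9 ± 9.72 (SD, n = 7), with an exact permutation p of 0.0896, against 0.0177 for the deposited values.

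Animals were labelled in a lettered and a numbered series. miR-367 had the higher mean in EMT-like areas in both, by 1.07 on the scaled log2 scale among lettered animals (3 carcinoma, 2 EMT-like, exact permutation p = 0.200, smallest possible 0.100) and by 1.46 among numbered animals (2 and 5, exact permutation p = 0.0476, the smallest possible). In the 4 cases where both areas came from the same animal or pool, deposited values were 6 and 35, 8 and 9, 3 and 20, and 5 and 8 (carcinoma and EMT-like). After scaling, the EMT-like area was higher in 3 of 4, with a mean log2 difference of 1.06. Against normal tissue and between metastases and PT, miR-367 was not called after TMM scaling, and the sign of these differences turned with the scaling between lanes. Other scalings did call it, in opposite directions. Carcinoma minus NMG was -1.69 without scaling (adjusted p = 0.0404), EMT-like minus NMG was 1.94 when scaled by the 100 most abundant miRNAs (adjusted p = 0.0430), and metastasis minus normal lung was 1.98 by the mouse sum (adjusted p = 0.0321) and 2.17 by the 100 most abundant (adjusted p = 0.0255), all on the log2 scale with limma.

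The other strands and hairpins of the miR-290 cluster on the panel were 6 probes. miR-292-5p, the opposite strand of the miR-292 hairpin, was at 16 and 60 in normal lung, above the limit in both lanes and under the highest viral probe in both, and at -2 and 13 in NMG. miR-293 was at 6 and 32 in normal lung and 0 and 7 in NMG. In limma, 3 of the 6 were called higher in normal lung than NMG, where 10.5% of all probes were higher and 11.7% called in either direction. The calls of miR-292-5p (log2 fold change 2.22, SE 0.71, adjusted p = 0.0452) and miR-293 (1.565, adjusted p = 0.0289, NMG under the limit) are a description only. Values were below 0, and entered as 0, in 20 of 24 lanes for miR-292-5p and 18 for miR-293. Without normal lung replicate 2 the log2 fold changes were 2.18 and 1.31, with no p given as a single normal lung lane was left. The third, miR-291a-5p, was above 0 in the normal lung lanes alone and under the limit in all 24 lanes, so no p is given. Between metastases and normal lung 4 of 6 were called lower, where 42.2% of all probes were. Of these, miR-291a-5p and miR-291b-5p were under the limit in all 24 lanes and above 0 in normal tissue alone. For miR-292-5p (limma adjusted p = 8.03e-05) and miR-293 (3.00e-05) the log2 differences were -3.49 and -2.49, with metastases at the floor of 0. Without normal lung replicate 2 they were -3.45 and -2.24. Both p-values are a description only. Outside normal tissue miR-292-5p was above 0 only in EMT-like replicate 1, at 6 and under the limit of 11.2. Likewise miR-293 was above 0 there only in EMT-like replicate 2, at 2 and under the limit of 10.8. miR-290-5p was called in the other direction (limma adjusted p = 0.0123), from 7 to 15 in metastases and 3 and -7 in normal lung, the latter both under the limit. Its log2 difference was 3.33, and 2.57 without normal lung replicate 2. miR-290-3p and miR-290-5p differed in pattern from the rest. They were above the limit in 7 and 8 of 24 lanes, miR-290-3p in 4 of 7 EMT-like lanes with a highest value of 22, and miR-290-5p in both monolayer lanes (23 and 18), under the highest viral probes of 34 and 33 there. In spheres replicate 1 miR-290-5p was at 22, above the limit of 19.5 and above every viral probe (highest 16). In spheres replicate 2 it was at 11, under the limit of 11.1. Metastasis replicate 1, at 10, was also above its limit of 4 and every viral probe (highest 7). Neither probe was called between spheres and monolayer.

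Some somatic miRNAs with related seeds were abundant in the same lanes. The oncogenic miR-17 family shares the AAGUGC core a base further in, and the miR-25 and miR-92 family shares the seed of miR-367. Their sequences show the likeness.
miR-17: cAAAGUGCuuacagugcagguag
miR-93: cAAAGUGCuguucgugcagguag
miR-25: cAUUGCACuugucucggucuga
miR-92a: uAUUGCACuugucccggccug

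In carcinoma and EMT-like areas, where every AAGUGC member was undetected, all 4 probes of the miR-17 family were above the limit in 12 of 12 lanes. Deposited values there were 498 to 1858 for the probe of miR-106a and miR-17, 891 to 3252 for that of miR-20a and miR-20b, 159 to 556 for miR-93 and 88 to 275 for miR-106b. In cultures miR-106b was not detected (-4 to 21, 0 of 4 lanes), while the other 3 probes were above the limit in all 4 lanes. Of the miR-367 seed, miR-25 was above the limit in 24 of 24 lanes (259 to 9629) and miR-32 in 20 of 24. miR-92a, miR-92b and miR-363 were not detected in any tumor or culture lane.

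Of the 4 probes of that family, 1 was called in any of the 8 comparisons: miR-93 was higher in carcinoma than in NMG (log2 fold change 1.15, SE 0.42, adjusted p = 0.0403 by limma). Of the 5 probes with the miR-367 seed, 4 were called lower in metastases than in normal lung, where 42.2% of all probes were. miR-32 had a log2 fold change of -2.66 (SE 0.93, adjusted p = 0.0219 by limma), and of -2.64 without normal lung replicate 2. miR-363 was above the limit in normal lung replicate 2 alone, at 34, and without that lane its difference was 0. miR-92a (limma adjusted p = 0.00623) and miR-92b (2.09e-05) were under the limit in all 4 metastases. Their log2 differences were -3.30 and -3.82, and -3.85 and -4.38 without normal lung replicate 2. The metastasis values of miR-92b were all below 0 and entered the fit as 0, so its p is a description only. miR-92b was also higher in normal lung than in NMG (limma adjusted p = 0.000421), by 3.82, and by 4.38 without normal lung replicate 2. Its normal lung values of 32 and 48 were its only 2 of 24 above the limit. The NMG values of -6 and -3 entered the fit as 0, so this is a difference from the floor and its p a description only. In normal lung replicate 2, 6 viral probes were at or above miR-92b. miR-25 was called in none of these 8 comparisons. The normal lung and NMG values of miR-367 overlapped.

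The normal tissue pattern was not particular to the members. Of the 566 mouse probes, 18 (3.18%) were above the limit in all 4 normal lanes and in none of the other 20, and miR-292-3p and miR-302b were 2 of them. Across the 24 samples, the probes most like miR-292-3p by Spearman correlation of scaled log2 values, out of 270 candidates, were miR-326 (0.67), miR-190 (0.67) and miR-138 (0.67), but miR-292-3p was at 0 in 20 of these samples and its correlation with the lane's mouse miRNA sum was 0.65. For miR-302b they were the endothelial miR-126-3p (0.70), miR-130a (0.70) and miR-16 (0.68), with a correlation of 0.70 with the sum. miR-302d was most like miR-876-3p (0.62), miR-328 (0.61) and miR-29c (0.55). miR-367 was most like miR-1928 (0.73), miR-1940 (0.72) and miR-1943 (0.65). All points share the lane and its depth, so these correlations are a description.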

How the data were processed

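miRNAs were measured with nCounter mouse miRNA assays, with 1 lane per sample. The deposited values are background-subtracted counts: in each lane the authors subtracted the mean of its 6 negative controls (lowest value -20, 35.2% of miRNA values below 0), and no scaling between lanes could be found. Partek is named in the submitters' processing notes, with no version. As these are not raw counts, no count model was used. Values below 0 entered the mouse miRNA sum as 0. Values were floored at 0, scaled by TMM (trims of 30% and 5%, reference carcinoma replicate 2) and compared as log2(value + 1) with limma 3.58.1 (trend) in R 4.3.3, in a fit of all 7 groups, with Benjamini-Hochberg adjustment over the 583 probes above 0 in at least 1 sample and a threshold of 0.05. Members never above 0 were left out, and no p is given against tumors for those above 0 in normal tissue alone. For single members, exact permutation tests (two-sided, over all splits, with the code checked against scipy 1.17.1) were run. At least-fold bounds set the detection limit per lane against the measured group, on the scaled value + 1 scale; other scalings of these bounds and fits of related probes without normal lung replicate 2 were chosen after seeing the data.

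The members, gene lists and alternatives were chosen with earlier results of these data known. All 10 members are named. Those above the limit in at least 3 lanes are given with each normal tissue and culture value, and as ranges in tumors except miR-367, given in every lane. The 3 most alike probes come from those above the limit in at least 6 lanes. On data simulated from these lanes, with 200 of 583 probes changed 4-fold, 23.0% were recovered for normal lung against NMG and 40.0% for spheres against monolayer (75.9% and 90.4% among those with a mean of 20 or more). Samples of the same animal, from the labels, had a median deviation correlation of 0.103 in tumors (10 pairs, -0.307 to 0.295). Alternatives were the scaling, filter, background, pseudocount, samples in the fit, animal block, detection limit and each sample left out. Array data of the study were not used here.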

Additional observations from a re-analysis of the deposited data

Results flagged for a closer look

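miR-291b-3p in lung metastasis replicate 1 lay apart from the other 3 metastasis lanes, with a value of -11 against -9 in each of them. All 4 values are below the negative control mean, and 1 such value among the 30 groups examined compares with about 1 in 20 groups that chance gives.

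The difference of metastasis from normal lung was not the same as that of PT from NMG for miR-302b, by -2.99 on the log2 scale (limma adjusted p = 0.000125). For miR-292-3p it was -2.39, with no p given as this miRNA was above 0 in normal tissue alone. Tumor values of both miRNAs were at or near the floor, so the contrast rests on 2 normal lung and 2 NMG samples. Without normal lung replicate 2 it was -2.08 for miR-292-3p and -2.49 for miR-302b. The p of miR-302b is a description only. The deposited normal lung values of 80 and 431 for miR-292-3p and 61 and 431 for miR-302b moved with the lane's miRNA sum (590022 and 2335745) and the highest viral probe (21 and 88), whose part in the result was not tested.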

How the results depend on the processing

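Of the member results under alternative settings, 364 kept their direction and side of the threshold, 8 lost a call, 10 gained one and 23 turned in sign, the last all for miR-367 and miR-302d. The 10 gained calls were miR-302d in EMT-like against NMG (unscaled, adjusted p = 0.00842; higher background, 0.0364; mRNA controls, 0.0258), miR-302d in metastasis against normal lung (unscaled, 0.00641; mRNA controls, 0.00290; without lung metastasis replicate 2, 0.0104) and 4 for miR-367, given with its sign turns. miR-302b kept every call in the tumor against normal comparisons, with limma adjusted p up to 0.0423. This is a description only, since nearly all its tumor values entered the fit as 0. Counts of members called include miR-292-3p, miR-294 and miR-302c, which passed the filter through normal tissue alone, and they moved as follows. Subtracting the mean + 2 SD of the controls with a floor of 1 gave 6 (carcinoma against NMG, main 3), 7 (EMT-like against NMG, main 2) and 4 (metastasis against PT, main 0), where the floor before scaling leaves undetected miRNAs higher in lanes with a small divisor. For metastasis against normal lung (main 4) the count was 2 when probes had to reach 20 in 2 or more samples and 2 with only the groups compared. For normal lung against NMG (main 2) it was 4 without scaling, 4 scaled by the mRNA controls (chosen after seeing the data) and 0 with only the groups compared. Leaving out 1 sample gave 2 to 3 members for carcinoma against NMG, 2 to 5 for metastasis against normal lung (2 without normal lung replicate 2), 2 to 4 for normal lung against NMG and 2 to 4 for the difference of tumor effects (4 without normal lung replicate 1 in both). With the highest viral probe as the limit, chosen after seeing the data, 11 of 240 member values remained above it, against 23, 4 of them for miR-292-3p and miR-302b in normal lung.

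The sign turned for miR-367 as follows, on the log2 scale. Carcinoma against NMG (main -0.25) was -1.69 unscaled (called, adjusted p = 0.0404), 0.14 by the mouse sum, 0.51 by the 100 most abundant miRNAs and -0.57 to 0.060 with 1 sample left out (the latter without NMG replicate 1). EMT-like against NMG (main 0.93) was 1.94 by the 100 most abundant (called, 0.0430), -0.16 unscaled and -0.014 by the mRNA controls. Metastasis against PT (main 0.47) was -0.054 unscaled. Metastasis against normal lung (main 0.76) was 1.98 by the mouse sum (called, 0.0321), 2.17 by the 100 most abundant (called, 0.0255), -1.22 unscaled and -1.58 by the mRNA controls. Normal lung against NMG (main 0.15) was -0.54 by the sum, -0.42 by the 100 most abundant, -0.22 with the higher background, and -0.56 to 0.86 with 1 sample left out (-0.17 without NMG replicate 2, -0.56 without normal lung replicate 1). The difference of tumor effects (main 0.32) was -0.42 unscaled, -1.14 by the mRNA controls and -0.39 to 1.04 with 1 sample left out (the former without normal lung replicate 2). For miR-302d, normal lung against NMG (main -0.18) was 0.046 unscaled, 0.084 with the higher background, 0.95 by the mRNA controls and -1.02 to 0.65 with 1 sample left out (the latter without normal lung replicate 1), and the difference (main 0.74) was -0.52 by the mRNA controls, and -0.31 to 1.57 with 1 sample left out (-0.31 without lung metastasis replicate 2, -0.10 without normal lung replicate 1). The cause was not tested. Chosen after seeing the data, leaving out normal lung replicate 2 turned miR-291b-5p (0.71 to -0.23) and miR-363 (1.16 to -0.25) in normal lung against NMG, neither called. The miR-302d call in carcinoma against NMG was lost by the sum (adjusted p = 0.126), the 100 most abundant (0.265), the higher background (0.127) and a pseudocount of 10 (0.0867). Scaling moved the median of all probes for normal lung against NMG by 0.31 (unscaled), -0.60 (sum), -0.52 (100 most abundant) and 1.05 (mRNA controls).

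With the animal as a replicate block (consensus correlation -0.0051) the members called were 0, 3, 2, 0, 4, 2, 0 and 2, as without it, so the pairing changed no count of calls. Culture lanes had the highest detection limits, at per-million shares of 332 to 639.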
